A study of Mus musculus with 6 samples.

Results

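The H3K27ac peaks described here lie in stretches of the mouse genome that hold few of them. Chromosomes 1 to 19 were cut into windows of 5 Mb by the position of each peak's centre, and windows with 1 to 19 peaks of the wild-type list were kept. These are called peak-poor windows. There were 89 of them among 491 windows with at least 1 wild-type peak, or 18.1%, and at 5 Mb each they span at most 445 Mb. They held 2235 of the 79419 peaks of all 3 lists. Of these, 751 were of 25666 in Bmal1 knockout cells, 595 of 24477 in Mfp2 knockout cells and 889 of 29276 in wild-type cells. The windows were thus selected on the number of wild-type peaks, so that number is no finding, and the knockout lists had no part in the choice.

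The cells were RAW264.7, a macrophage-like mouse line, grown without any stated stimulus. Their genotypes were Bmal1 knockout (Bmal1KO), Mfp2 knockout (Mfp2KO) and wild type. The wild-type libraries are titled naive, a word that the knockout titles lack, and whether it means unedited or unstimulated is not stated. BMAL1 drives transcription in the circadian clock, MFP2 works in the β-oxidation of fatty acids in peroxisomes, and the series title names both in the context of macrophage inflammation. Each genotype had 1 ChIP library, of 12.5 M, 15.8 M and 15.8 M tags in Bmal1KO, Mfp2KO and wild type, and 1 input library. Whether a knockout is a clone or a pool is not stated. With 1 library per genotype no difference below has a replicate check or a test, and every difference is between these libraries. Intervals printed after a share are 95% Wilson intervals for the number of peaks counted, and as neighbouring peaks of a locus are not independent they are too narrow. Positions are in build mm39. No gene or sequence is given, since the gene tables used here are of another build, and macrophage marker genes were not looked up for the same reason.

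H3K27ac, acetylation of lysine 27 on histone H3, is placed by acetyltransferases such as p300 and CBP at active promoters and enhancers. Broad acetylated stretches with many peaks often surround genes that a cell type transcribes strongly. Mouse chromosomes alternate between gene-rich segments, which carry most of this acetylation, and gene-poor segments, often replicated late and held at the nuclear lamina, where active elements are far apart.

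Peak-poor windows were spread over most autosomes. They occurred on 18 of the 19 autosomes, all but chromosome 19, with most on chromosome 4 (9 windows) and chromosome 1 (8 windows). Of the 89 windows, 57 had no peak-poor neighbour, 13 runs had 2 windows and 2 runs had 3. A window without a wild-type peak is left out by the rule and ends a run. Longer sparse blocks that hold such windows are thus split, and the run lengths do not show that they are absent. The runs of 3 lay from 65 to 80 Mb of chromosome 4, with 19 Bmal1KO, 16 Mfp2KO and 26 wild-type peaks, and from 60 to 75 Mb of chromosome 16, with 16, 16 and 26. In the run from 15 to 25 Mb of chromosome 1 there were 37 Bmal1KO, 21 Mfp2KO and 36 wild-type peaks. The first or last window with a peak on its chromosome made up 16 of the 89. Of these, 11 began at the chromosome end, where no peak of any list started before 3003781 bp, so their usable length is shorter than 5 Mb. A window at the far end of a chromosome can also be cut short, and chromosome lengths were not used. Such a window can hold few peaks because it holds little sequence. The median number of wild-type peaks was 9 per peak-poor window and 59.5 per other window. At the limit of the rule, 4 windows with 19 wild-type peaks held 52 Bmal1KO and 45 Mfp2KO peaks, for 76 in wild type. At the lower limit, 5 windows with 1 wild-type peak held 5 Bmal1KO and 3 Mfp2KO peaks. Just outside the upper limit, 8 windows with 20 held 140 Bmal1KO and 133 Mfp2KO peaks, for 160 in wild type.

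Fewer peaks were called in the peak-poor windows in both knockouts, and the difference was wider in Mfp2KO. Bmal1KO had 84.5% and Mfp2KO 66.9% as many peaks there as wild type. In the other 402 windows the values were 88.1% and 84.3%. Window by window, Bmal1KO had fewer peaks than wild type in 52, the same number in 13 and more in 24 of the 89. Mfp2KO had fewer in 74, the same number in 6 and more in 9. The median window held 8 Bmal1KO, 6 Mfp2KO and 9 wild-type peaks. No peak was called in 2 windows of Bmal1KO and in 4 of Mfp2KO. Called sequence came to 1.22 Mb in Bmal1KO, 1.01 Mb in Mfp2KO and 1.84 Mb in wild type. That is 66.4% and 54.8% of wild type, against 70.1% and 69.7% in the other windows. It was below wild type in 80 windows in Bmal1KO and in 86 in Mfp2KO. Tags did not follow, where a tag count is given per 10 M tags of the library. The sum of tags in a window was above wild type in 41 of 89 windows in Bmal1KO and in 63 in Mfp2KO, with median ratios of 0.973 and 1.32. The peak-poor windows held 2.83% of all tags in peaks in Bmal1KO, 2.68% in Mfp2KO and 2.78% in wild type. The higher Mfp2KO sum was thus not particular to these windows.

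**Figure D1:**
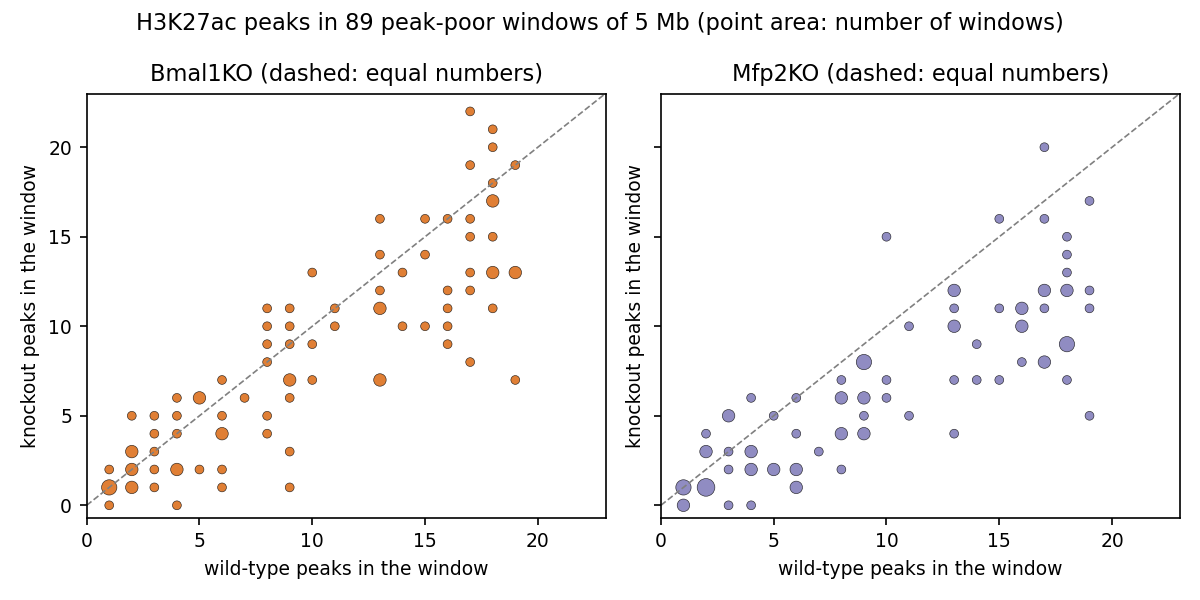
Number of H3K27ac peaks in each peak-poor window in Bmal1KO (left) and Mfp2KO (right) against the number in wild type; the area of a point stands for the number of windows at that place, and the dashed line marks equal numbers. Points lie on both sides of the line in Bmal1KO (52 windows below, 24 above), and mostly below it in Mfp2KO (74 below, 9 above).

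The choice of windows by the wild-type list can move these ratios, so the same limits were also applied to each knockout list. With windows of 1 to 19 Bmal1KO peaks, 112 in number, Bmal1KO had 77.1% and Mfp2KO 65.9% as many peaks as wild type. With windows of 1 to 19 Mfp2KO peaks, 137 in number, the values were 78.2% and 61.2%. A list that chooses the windows is held low by the choice. Between the knockouts, Mfp2KO had 79.2% as many peaks as Bmal1KO in windows that the wild-type list chose, which uses neither list, against 95.4% over the whole lists.

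The lower number in Mfp2KO did not stop at 19 wild-type peaks per window. In windows with 1 to 4, 5 to 9, 10 to 14 and 15 to 19 wild-type peaks, Mfp2KO had 82.8%, 59.6%, 73.1% and 65.6% as many peaks as wild type. In windows with 20 to 39, 40 to 79 and 80 to 224 the values were 72.6%, 80.1% and 89.1%. The Bmal1KO values ran 96.6%, 80.9%, 88.3%, 83%, 84.2%, 87.2% and 89.3% over the same 7 steps. The lowest step rests on 58 wild-type peaks. From 20 peaks per window upward the Mfp2KO value was higher at each step, and in the sparser windows it had no such order.

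The difference in peak number per window ran from -12 to 5 in Bmal1KO and from -14 to 5 in Mfp2KO. From 55 to 60 Mb of chromosome 5 there were 7 Bmal1KO, 5 Mfp2KO and 19 wild-type peaks, the lowest difference of both knockouts. From 40 to 45 Mb of chromosome 17 there were 8 peaks in each knockout and 17 in wild type. From 15 to 20 Mb of chromosome 5 there were 1, 4 and 9 peaks in Bmal1KO, Mfp2KO and wild type. From 40 to 45 Mb of chromosome 15, Mfp2KO had 7 peaks, Bmal1KO 13 and wild type 18. From 15 to 20 Mb of chromosome 1 the knockouts parted: Bmal1KO had 20 peaks and Mfp2KO 9, for 18 in wild type. The tags there were 3391 in Bmal1KO, 4517 in Mfp2KO and 2809 in wild type, so the lower number in Mfp2KO came with a higher sum. The other way, from 10 to 15 Mb of chromosome 7, Bmal1KO had 22 peaks and Mfp2KO 20, for 17 in wild type. Their tags summed to 2556, 5452 and 2518. From 5 to 10 Mb of chromosome 9 there were 13 Bmal1KO, 15 Mfp2KO and 10 wild-type peaks, and in the first 5 Mb of chromosome 1 there were 4, 5 and 3. In Bmal1KO alone the number was higher from 10 to 15 Mb of chromosome 12, with 16 peaks, 10 in Mfp2KO and 13 in wild type. The same held from 75 to 80 Mb of chromosome 13, with 21, 15 and 18. The windows with most wild-type tags kept nearly the same number of peaks in Bmal1KO. From 85 to 90 Mb of chromosome 5 there were 19 Bmal1KO, 17 Mfp2KO and 19 wild-type peaks with 3277, 4648 and 3734 tags, and from 40 to 45 Mb of chromosome 3 there were 16, 16 and 15 with 4021, 4894 and 3417. From 110 to 115 Mb of chromosome 4, Bmal1KO had 16 peaks, Mfp2KO 10 and wild type 16, with 2792, 4156 and 3154 tags.

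Wild-type peaks in peak-poor windows had nearly the strength of those elsewhere, while Mfp2KO peaks had a higher median. The median wild-type peak had 37 tags and a width of 1685 bp there, against 41.8 tags and 1710 bp in the other windows. In Bmal1KO the medians were 31.5 tags and 1288 bp, against 36.3 tags and 1422 bp. In Mfp2KO they were 103 tags and 1686 bp, against 65.6 tags and 1613 bp. That median was 74.9 (60.8 to 105) in windows chosen from the Mfp2KO list and 79.7 (60.8 to 116) in those chosen from the Bmal1KO list. It was 153 with the grid shifted by 2.5 Mb and 208 among 6-fold peaks. Peaks of at least 100 tags made up 34.6% of Bmal1KO peaks (31.3 to 38.1), 50.3% of Mfp2KO peaks (46.2 to 54.3) and 31.5% of wild-type peaks (28.5 to 34.6) in the peak-poor windows. In the other windows the shares were 34%, 44.1% and 34.2%. The middle class of 20 to 100 tags was smaller in the peak-poor windows in both knockouts, at 23.6% of Bmal1KO and 21.3% of Mfp2KO peaks, against 27% and 25.5% in the other windows. In wild type it was 29.8% against 29%.

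**Figure D2:**
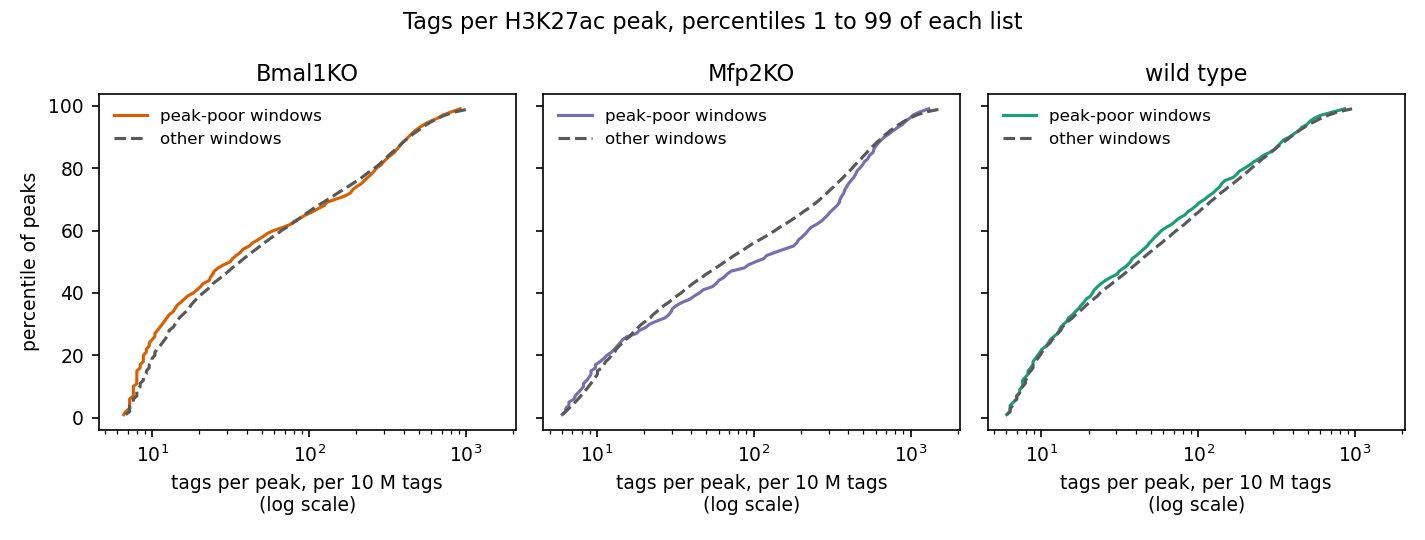
Percentiles of tags per peak (x axis, tags per 10 M tags, log scale) in Bmal1KO, Mfp2KO and wild type, with peak-poor windows as solid and other windows as dashed lines. The Mfp2KO line of peak-poor windows runs to the right of that of other windows around the median (103 against 65.6 tags), while the wild-type lines stay close (37 against 41.8 tags).

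Enrichment over the input library was higher in peak-poor windows in every list. The authors' fold over input had a median of 9.26 in Bmal1KO, 11.4 in Mfp2KO and 8.28 in wild type, against 7.64, 8.33 and 7.03 in the other windows. Input at peaks called in all lists, per kb and 10 M tags, was 6.1 in Bmal1KO, 10.6 in Mfp2KO and 5.45 in wild type, against 6.71, 9.96 and 6.19 in the other windows. The ChIP tags per kb at these peaks were 103, 171 and 75, against 93.1, 145 and 70.8. Input was thus higher at Mfp2KO peaks along with the ChIP tags, inside and outside the peak-poor windows, and its part in the Mfp2KO tag values was not tested. In the authors' deposited headers 57.15% of Mfp2KO tags lay in peaks, against 37.35% in Bmal1KO and 38.71% in wild type. In bulk libraries like these, fewer acetylated cells and less acetylation per cell cannot be told apart.

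Long acetylated stretches were rarer. Peaks over 5 kb made up 1.33% of Bmal1KO (10 peaks), 1.01% of Mfp2KO (6 peaks) and 4.72% of wild-type peaks (42 peaks) in the peak-poor windows, against 2.81%, 3.45% and 7.5% in the other windows. Peaks also stood further apart, as the rule makes likely. The median gap to the next peak of the same list was 19.1 kb in Bmal1KO, 26.1 kb in Mfp2KO and 10.6 kb in wild type, against 6.81, 6.59 and 4.84 kb in the other windows. In peak-poor windows 36.5% of Bmal1KO, 32.8% of Mfp2KO and 49.2% of wild-type peaks had another of their list within 10 kb, while 21.7%, 24% and 14.1% had none within 100 kb. The median span from the first to the last wild-type peak of a window was 1472 kb. In 9 of the 66 windows with at least 5 wild-type peaks, all of them lay within 500 kb. The tightest was chromosome 14 from 40 to 45 Mb, with 19 wild-type peaks in 120 kb. A window's tags were often carried by a single peak: at the median the strongest held 42% of the wild-type tags, and in 26 of 84 windows with more than 1 wild-type peak it held over 50%.

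The strongest peaks of these windows were present in all genotypes. The 10 wild-type peaks with most tags each had a Bmal1KO and an Mfp2KO peak. The highest, on chromosome 3 (41516711-41522472), had 1277 tags in Bmal1KO, 1330 in Mfp2KO and 1300 in wild type, over 4760, 4237 and 5761 bp. The 3 values nearly coincide. On chromosome 13 (120250291-120254221) they were 1040, 983 and 1023 tags. Most tags of any of the 10 were seen in Mfp2KO on chromosome 4 (114909449-114916050), with 1078 in Bmal1KO, 2109 in Mfp2KO and 970 in wild type. Another peak high in Mfp2KO, on chromosome 12 (91553946-91559823), had 992, 1438 and 892 tags. Both knockouts were lower at 2 of the 10, both on chromosome 13. At 85434374-85441154 there were 514 tags in Bmal1KO, 691 in Mfp2KO and 919 in wild type. At 17976773-17981110 there were 704, 947 and 1048. On chromosome 9 (94411232-94423634) the wild-type peak was 12402 bp long, while the overlapping Bmal1KO peaks covered 6157 bp and the Mfp2KO peak 3349 bp. The tags there were 747, 1084 and 903, so the shorter stretch was the denser one, at 121, 324 and 72.8 tags per kb. The remaining 3, on chromosomes 16 (64670199-64674450), 14 (87652467-87656614) and 17 (3163658-3167270), had 730, 918 and 892 tags in Bmal1KO, 1022, 1034 and 1087 in Mfp2KO, and 911, 880 and 854 in wild type. Per kb of called peak, Mfp2KO had the highest value at all 10.

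**Figure D3:**
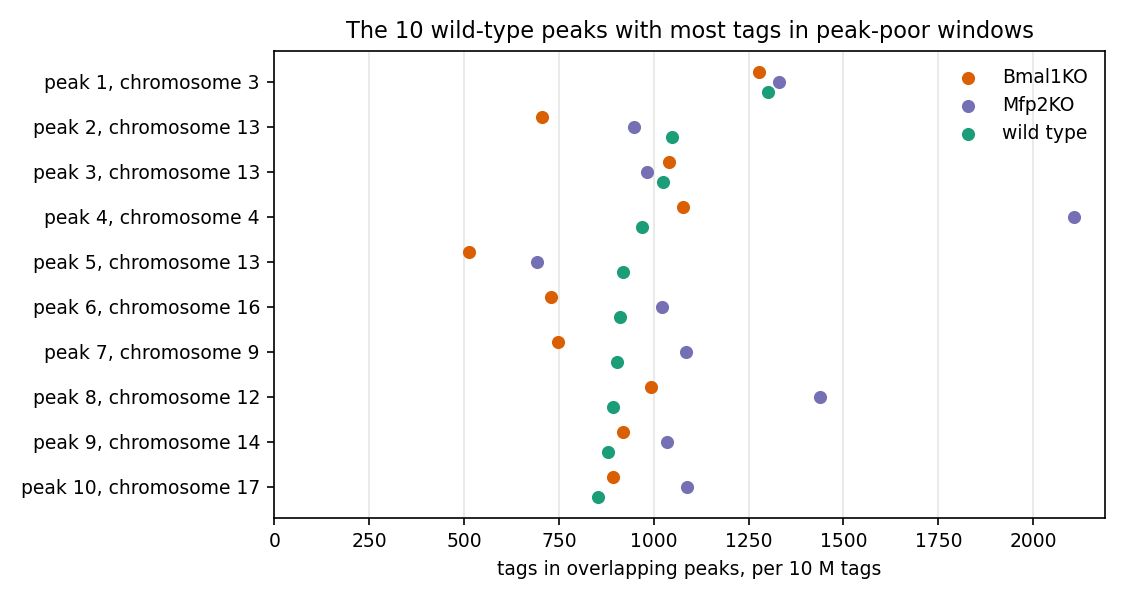
Tags, scaled to 10 M per library, in Bmal1KO, Mfp2KO and wild type at the 10 wild-type peaks with most tags in peak-poor windows, from most to fewest in wild type. Bmal1KO lies lowest at 514 tags for the fifth peak, and Mfp2KO highest at 2109 tags for the fourth.

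Isolated strong peaks were called in both knockouts. Of 280 wild-type peaks with at least 100 tags in peak-poor windows, 270 overlapped a peak of both knockouts and 4 a peak of neither. All 47 of the 280 that lay over 100 kb from any other wild-type peak were among the 270. In the other windows 4 of 311 such peaks (1.29%) had no Bmal1KO peak and 8 (2.57%) no Mfp2KO peak, so the count of 47 is near what the rest of the list shows. On chromosome 8 (8738338-8741670) the only wild-type peak of its window, 1283954 bp from the next, had 472 tags in Bmal1KO, 595 in Mfp2KO and 572 in wild type. On chromosome 12 (46864164-46867822) an isolated peak had 414 tags in Bmal1KO, 535 in Mfp2KO and 550 in wild type. On chromosome 10 (105676028-105678819), 2317651 bp from the next wild-type peak, the values were 316, 574 and 225. On chromosome 5 (48528874-48531335), 2444538 bp from the next, they were 260, 228 and 145. The last pair were higher in both knockouts, and those on chromosomes 8 and 12 lower in Bmal1KO. In 3 of the 5 windows with 1 wild-type peak, that peak was also called in both knockouts. The exceptions had few wild-type tags: 7.6 on chromosome 5 (12979129-12979629), where Bmal1KO had 7.58 and Mfp2KO no peak, and 7.92 on chromosome 15 (45454256-45454893), where neither knockout had a peak. These isolated and single peaks were chosen after their values were seen.

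Weak wild-type peaks of these windows were mostly missing from the knockout lists. No Bmal1KO peak overlapped 375 of the 889 wild-type peaks, or 42.2% (39 to 45.5), where 38.9% of the whole wild-type list had none. No Mfp2KO peak overlapped 435, or 48.9% (45.7 to 52.2), where 41.4% of the whole list had none. Both knockouts lacked 332, or 37.3% (34.2 to 40.6), against 31.1% of the whole list. The 375 peaks had a median of 10.8 tags and 672 bp and held 6.32% of the wild-type tags of the windows. The 435 had a median of 12.3 tags and 770 bp and held 8.27%. Under 20 tags, 85.8% of 344 wild-type peaks had no Bmal1KO peak and 91.3% no Mfp2KO peak. Between 20 and 100 tags it was 27.9% (74 peaks) and 42.6% (113 peaks), and at 100 tags or more 2.14% and 2.86% of 280. In the other windows the 3 classes had 81.9%, 28.8% and 0.907% without a Bmal1KO peak, and 83.6%, 34.3% and 1.58% without an Mfp2KO peak.

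The share missing in Mfp2KO was above that of equally strong peaks of the whole list. Each wild-type peak was given the share that its decile of tags had over the whole list, and the mean was taken as the share expected from tags. For Bmal1KO 40.7% was expected and 42.2% observed, a difference of 1.52 percentage points (-1.68 to 4.8, from the Wilson interval of the observed share). For Mfp2KO 43.2% was expected and 48.9% observed, a difference of 5.70 points (2.42 to 8.98). In counts, 435 peaks were missing in Mfp2KO where 384 were expected. More were missing than expected in 62 windows and fewer in 27. For Bmal1KO, 375 were missing where 361 were expected, with more than expected in 50 windows and fewer in 39. In the fourth decile, 14.2 to 23.7 tags, Mfp2KO lacked 81.1% (72.8 to 87.3) of 111 peaks in the peak-poor windows and 65.4% (63.6 to 67.1) of those in the other windows. In the sixth, 41.2 to 71.2 tags, it lacked 37.2% (28.1 to 47.3) of 94 peaks, against 25% (23.5 to 26.7). Keeping only peaks with at least 6-fold enrichment in every list left a difference of 2.13 points (-1.65 to 5.93) for Mfp2KO. With the window grid shifted by 2.5 Mb it was 2.77 points (-0.65 to 6.24), and in windows with 1 to 29 wild-type peaks 2.8 points (0.76 to 4.85). Its size thus changed with how the windows were drawn, and the interval with the shifted grid includes 0. The plain share missing in Mfp2KO did not stop at the limit of the rule. It was 44.8%, 51.7%, 46.8% and 49.2% in windows with 1 to 4, 5 to 9, 10 to 14 and 15 to 19 wild-type peaks. Outside the rule it was 46.5% with 20 to 39, 43.7% with 40 to 79 and 38.7% with 80 to 224. A high share was thus not particular to these windows.

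**Figure D4:**
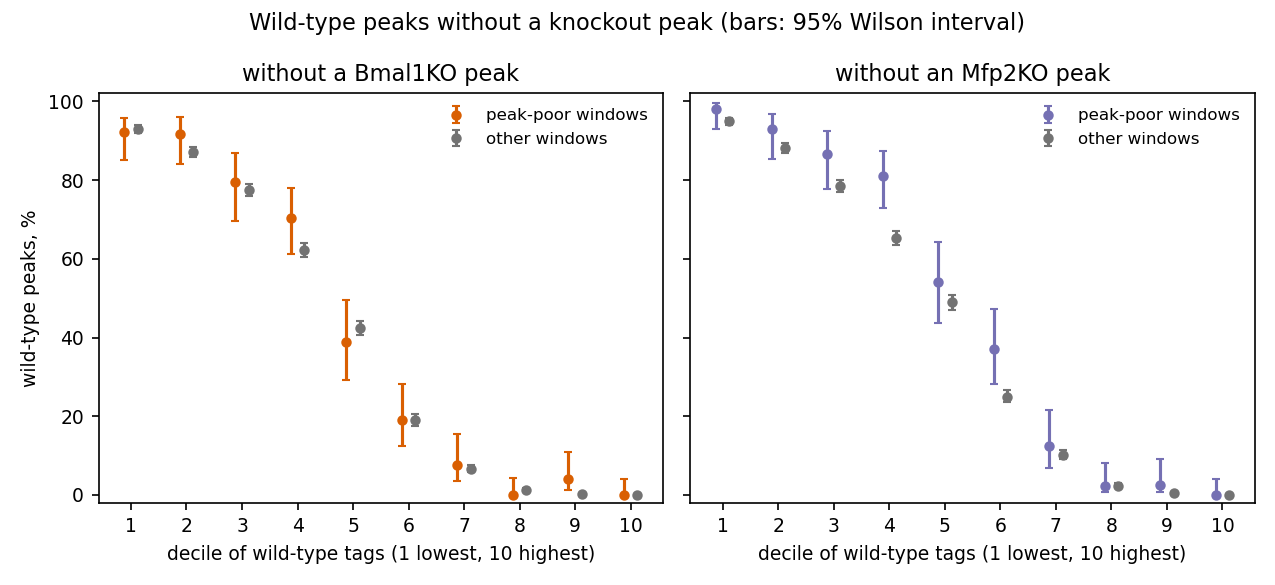
Share of wild-type peaks (%) with no overlapping Bmal1KO peak (left) or Mfp2KO peak (right) by decile of wild-type tags, in peak-poor windows (coloured) and other windows (grey), with 95% Wilson intervals. In Mfp2KO the coloured points lie above the grey ones from the first to the seventh decile, with 81.1% against 65.4% in the fourth; in Bmal1KO they cross.

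Wild-type peaks of middle strength were missing in the largest share where they had a close neighbour, with intervals that overlap in part. Of those with 20 to 100 tags in peak-poor windows, Mfp2KO lacked 51.5% (43.1 to 59.7) of 136 that had another wild-type peak within 10 kb. It lacked 35.6% (26.4 to 45.8) of 90 with the next at 10 to 100 kb, and 28.2% (16.5 to 43.8) of 39 beyond 100 kb. Bmal1KO lacked 34.6% (27.1 to 42.9), 21.1% (14 to 30.6) and 20.5% (10.8 to 35.5). The median tags of the 3 groups were 42.2, 42.9 and 48.1, so the most isolated group was also slightly stronger. In the other windows the same groups had 36.5%, 29.2% and 36.4% missing in Mfp2KO, and 31.2%, 23.8% and 27.7% in Bmal1KO, so there the most isolated group was not the lowest. All 6 peaks of at least 100 tags without a Bmal1KO peak and all 8 without an Mfp2KO peak lay within 10 kb of another wild-type peak. In the other windows this was so for 62 of 86 and 105 of 150. Of all wild-type peaks of at least 100 tags, 109 of 280 in peak-poor windows had such a neighbour, and 5751 of 9479 in the other windows. The 6 and the 8 have 4 peaks in common.

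A cluster on chromosome 5 held the widest difference in peak number of both knockouts. All 19 wild-type peaks of the window from 55 to 60 Mb lay within 229 kb (57871646-58101013). The first peak (57871646-57883175) was the strongest in every list, with 474 tags in Bmal1KO, 1950 in Mfp2KO and 836 in wild type. Behind it lay a string of weaker wild-type peaks with 654 tags in sum. The remaining tags of the window came to 79.3 in Bmal1KO and 37.7 in Mfp2KO. One of the string (58003253-58009964) had 142 tags over 6711 bp in wild type, where Bmal1KO had 16.8 tags in 2 short peaks and Mfp2KO 7.92 tags in 1. Wild-type peaks of 57.3 tags (58024678-58028725) and 35.1 tags (57972472-57975402) had none in either knockout. The strongest peak thus held 85.7% of the tags called in the window in Bmal1KO, 98.1% in Mfp2KO and 56.1% in wild type. Called sequence was 9.77 kb, 9.32 kb and 47.8 kb. Signal below each list's own threshold is not in these files, so a lower level of the mark cannot be told apart from its absence.

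**Figure D5:**
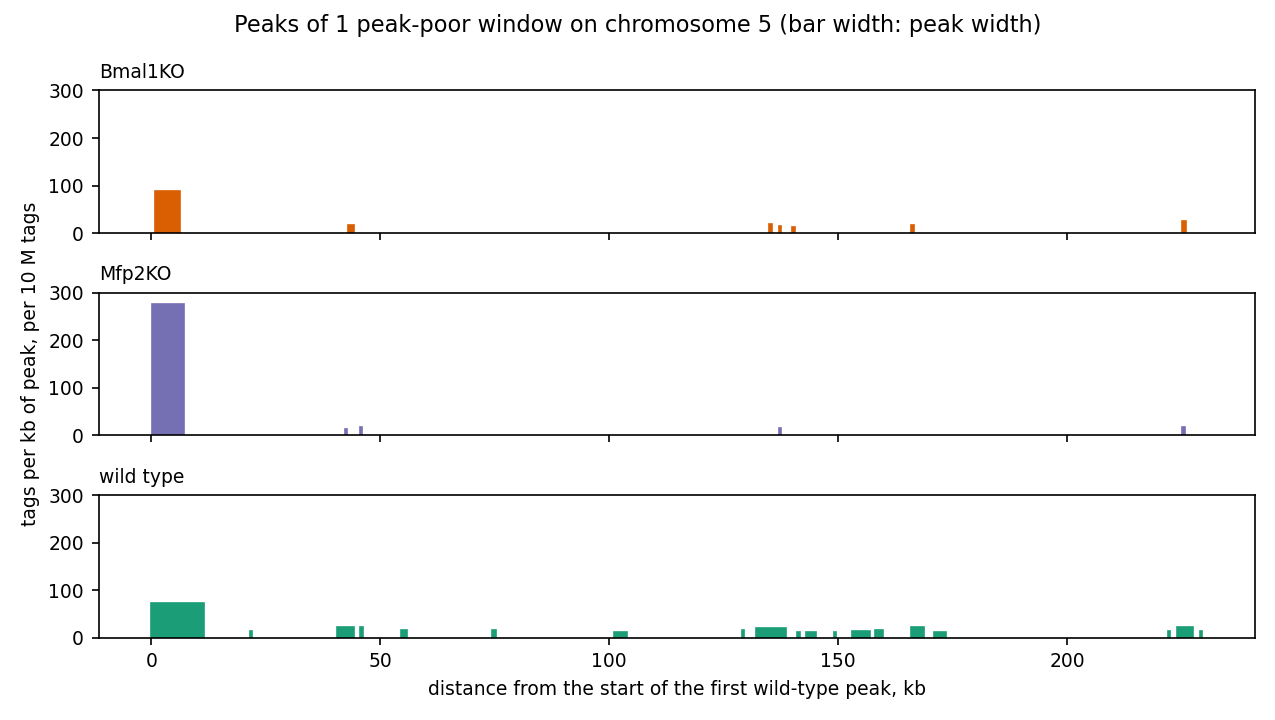
Peaks of the chromosome 5 cluster in Bmal1KO, Mfp2KO and wild type: distance from the start of the first wild-type peak (x axis, kb), tags per kb of peak (y axis, per 10 M tags), with bar width equal to peak width. The first peak is present in all genotypes, and most of the 18 weaker wild-type bars to its right have no counterpart in the knockouts.

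The 6 wild-type peaks with most tags and no knockout peak had between 59.8 and 293 tags. The first, on chromosome 5 (64959427-64962617), reached 293 tags over 3190 bp at 7.14-fold enrichment, with the nearest Bmal1KO peak 78361 bp and the nearest Mfp2KO peak 6226 bp away. On chromosome 9 (94496024-94499414) it had 114 tags, with the nearest knockout peaks 47958 bp (Bmal1KO) and 51522 bp (Mfp2KO) away. On chromosome 18 (25151789-25155135) it had 71.6 tags, with knockout peaks no closer than 44009 bp. On chromosome 1 (46902241-46904771) it had 59.8 tags and a Bmal1KO peak 992 bp away. The other 2, on chromosomes 4 (21678204-21681370) and 13 (117160916-117163144), had 222 and 116 tags. Enrichment over input was 6.29-fold on chromosome 9, 4.94-fold on 18, 8.08-fold on 1, 6.6-fold on 4 and 4.98-fold on 13. The limit was 4-fold. Wild-type peaks of at least 100 tags in peak-poor windows with a neighbour within 10 kb had a median of 12.1-fold. Those of 20 to 100 tags with such a neighbour, the class of the peaks on chromosomes 18 and 1, had 6.99-fold. Every one of the 6 had another wild-type peak at most 7461 bp away.

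Knockout peaks without a wild-type counterpart were mostly weak too. Of 751 Bmal1KO peaks in peak-poor windows, 191 had no wild-type peak, or 25.4% (22.4 to 28.7), where 23.6% of the whole Bmal1KO list had none. Of 595 Mfp2KO peaks, 111 had none, or 18.7% (15.7 to 22), where 25.4% of the whole Mfp2KO list had none. The rule keeps these windows low in wild-type peaks, which by itself works towards a higher share. The median was 8.78 tags for the 191 and 10.1 tags for the 111. From the deciles of tags in each list 26.2% and 23.4% were expected, so the difference was -0.74 points in Bmal1KO (-3.72 to 2.5) and -4.78 points in Mfp2KO (-7.70 to -1.45). At 100 tags or more, 2 of 260 Bmal1KO and 9 of 299 Mfp2KO peaks had no wild-type peak, or 0.769% and 3.01%, close to the 0.566% and 2.71% of the other windows.

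Only 18 of 1161 merged regions in peak-poor windows had a peak of each knockout and none of wild type, or 1.55% (0.983 to 2.44), against 2.04% over the whole series. The highest, on chromosome 18 (4919526-4923000), had 200 tags in Bmal1KO and 278 in Mfp2KO, and the nearest wild-type peak lay 409960 bp off. Its enrichment over input was only 5.1-fold and 5.53-fold, near the limit of 4. On chromosome 4 (35155975-35158107) the tags were 98.1 in Bmal1KO and 202 in Mfp2KO, 7568 bp from a wild-type peak. On chromosome 14 (40734754-40736887) they were 83.4 and 206, with one 3370 bp away. On chromosome 12 (91350191-91352144) there were 28.7 tags in Bmal1KO and 188 in Mfp2KO at 19.3-fold enrichment, 69835 bp from the nearest wild-type one. On chromosome 9 (18384176-18385911) Bmal1KO had 12 tags and Mfp2KO 137 at 21.9-fold, with wild type no closer than 178771 bp. On chromosome 1 (149974776-149976731) they had 20.3 and 136. These 6 were picked for their tags, which favours the list with higher tags. The 6 Mfp2KO peaks with most tags and no wild-type peak lay in these same regions, so no peak of Mfp2KO alone is named. Over all 18 regions, tags were higher in Mfp2KO than in Bmal1KO in 14 and lower in 4, and at least 2-fold higher in 9. Among Bmal1KO peaks without wild type and Mfp2KO, the highest, on chromosome 14 (19818117-19820592), had 114 tags and a wild-type peak 678 bp away. The next of these, on chromosomes 3 (41536916-41538588) and 18 (3270658-3272884), had 42.7 and 41.1 tags, 1352 and 7492 bp from a wild-type peak.

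Regions called in wild type and a knockout were compared by their tags, as ratios of knockout over wild type. In peak-poor windows 514 regions were called in Bmal1KO and wild type, with a median ratio of 0.873 (quartiles 0.542 and 1.32), against 0.84 over 16702 regions of the other windows. For Mfp2KO, 450 regions had a median ratio of 1.28 (0.617 and 2.28), against 1.34 over 15844. Called length was lower, with median ratios of 0.817 in Bmal1KO and 0.748 in Mfp2KO, against 0.811 and 0.792. It was shorter in Mfp2KO than in wild type in 85.8% of regions, against 75.3% in the other windows. Tags at least 2-fold higher were found in 32 Bmal1KO regions, or 6.23%, where the whole series had 5.49%, and 2-fold lower in 116, or 22.6%, where it had 21.9%. In Mfp2KO 136 regions were at least 2-fold higher, or 30.2%, where the whole series had 31.1%, and 93 at least 2-fold lower, or 20.7%, where it had 18.5%. These shares are near those of the whole series.

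A few shared regions differed most. On chromosome 16 (62666410-62668228) there were 126 tags in Bmal1KO, 181 in Mfp2KO and 13.6 in wild type, or 9.24 times and 13.3 times wild type. The log2 ratios were 3.21 (95% counting interval 2.58 to 3.98) and 3.73 (3.12 to 4.48). Fold over input there was 9, 11.9 and 4.5. On chromosome 13 (3527462-3529523) the tags were 69, 145 and 11.1. Fold over input was 4.81, 5.83 and 6.59 at that region, so it was not higher in the knockouts. The third highest ratio of Bmal1KO, 5.99, was on chromosome 1 (15745509-15747943), with 53.1 tags in Bmal1KO, no Mfp2KO peak and 8.86 tags in wild type. That of Mfp2KO, 9.34, was on chromosome 7 (12155605-12157027), with 12 tags in Bmal1KO, 71 in Mfp2KO and 7.6 in wild type. On chromosome 7 (14265456-14269509) Bmal1KO had 7.18 tags over 500 bp and wild type 115 over 4053 bp, a log2 ratio of -4.00 (-5.15 to -3.04), and Mfp2KO had 23.4 tags. On chromosome 1 (148777676-148782136) the values were 12 in Bmal1KO, 11.1 in Mfp2KO and 104 in wild type. On chromosome 9 (94572600-94575764) they were 33.9, 6.02 and 100 tags, and on chromosome 6 (22213252-22217649) Mfp2KO had 8.87 and wild type 110, with no Bmal1KO peak. In the knockout for which each of these was among the 3 lowest ratios, its peaks covered at most 1000 bp of a wild-type peak at least 3164 bp long. The intervals cover the counting of tags only, and these regions are extremes of 385 and 389. Fold over input often went against the tags. On chromosome 7 it was 7.28 in Mfp2KO and 11.3 in wild type (12155605-12157027), and 18.5 in Bmal1KO and 11.4 in wild type (14265456-14269509). In Mfp2KO it was 15.4 against 7.43 on chromosome 9 and 7.58 against 6.93 on chromosome 6. On chromosome 1 it went with the tags in Bmal1KO, at 7.6 against 5.27 and 30.9 against 61.5. These folds rest on the called peaks alone and not on the whole region. The 18.5, 15.4 and 7.58 came from 7.18, 6.02 and 8.87 tags over 500, 500 and 631 bp. The wild-type 11.3 came from 7.6 tags over 500 bp. Input counts at peaks this weak are small, so these folds are unsteady and no conclusion is drawn from them.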

How the data were processed

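H3K27ac ChIP-seq was measured in 3 genotypes of RAW264.7 cells, with 1 ChIP and 1 input library each, and the deposited files are 3 peak lists. The authors' lists were made with HOMER findPeaks in histone style, which stitches enriched 500 bp windows into peaks, each ChIP against the input of its genotype, with at least 4-fold and a p-value of 0.0001 over input and at least 9 tags per window in Bmal1KO or 10 in Mfp2KO and wild type, per the file headers. The submitters' processing notes name HOMER 5.1, MACS3 3.0.3, Picard 3.4.0, SAMtools 1.23, BWA 0.7.19-r1273, fastp 1.0.1 and build mm39, with no order. The deposited signal per peak is the authors' tag count scaled to 10 M tags of the library; the deposited ratio is the fold of ChIP over input tags, and the deposited score is HOMER's peak score. The authors' input tags were rescaled here to 10 M tags with the scale inferred from the ChIP columns. Each list has its own threshold, tag depth and share of tags in peaks, which bear on which weak peaks are called. A peak counted as shared with an overlap of at least 1 bp. Peaks of the 3 lists that touch were merged into regions, whose tags were summed per list. Shares carry 95% Wilson intervals, tag ratios a 95% counting interval, and expected shares come from deciles of tags over a whole list. Python 3.11.15, numpy 2.4.6, pandas 2.3.3 and scipy 1.17.1 were used, and the window, overlap, gap and merging steps were tested on simulated peaks. Named were the 10 wild-type peaks with most tags and the 6 highest wild-type peaks without a knockout peak. The 6 highest peaks of each knockout without a wild-type peak and the 6 highest regions of both knockouts only were named too. So were the 3 highest and 3 lowest tag ratios among regions with at least 50 tags. Among windows, those with most tags, the longest runs and the widest differences in peak number were named. The windows, lists and measures were chosen with earlier results of these data known. The alternatives were another limit or grid for the windows, windows chosen from a knockout list, other overlaps, a 6-fold limit and equal list lengths. The macrophage marker genes, motifs and gene families were not analysed here.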

Additional observations from a re-analysis of the deposited data

How the results depend on the processing

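Of 72 alternative values for the shares and for the differences from the share expected by tags, 55 stayed within the interval of the value given, 17 moved and 0 reversed by the rule used. The share of wild-type peaks without a Bmal1KO peak, 42.2%, was 38.6% with the grid shifted by 2.5 Mb, 45.5% in windows chosen from Mfp2KO, 55.3% with 50% overlap required, 36.8% with a peak within 1 kb counted as shared and 32.2% with lists cut to the same number of peaks. The share without an Mfp2KO peak, 48.9%, was 45.2% with the shifted grid, 53.2% in windows chosen from Mfp2KO, 59.7% with 50% overlap and 39% with equal list lengths. Bmal1KO peaks without wild type, 25.4%, were 29% in windows with 1 to 9 peaks, 21.3% within 1 kb and 30.5% among 6-fold peaks. Mfp2KO peaks without wild type, 18.7%, were 22.4% with 50% overlap and 25.8% among 6-fold peaks. The difference from the expected share was 2.13 points for Mfp2KO among 6-fold peaks, and with deciles of fold in place of tags 10.30 points for Mfp2KO and 6.29 for Bmal1KO. For Mfp2KO it was above 0 in every alternative, although its interval included 0 with the shifted grid (2.77 points, -0.65 to 6.24) and among 6-fold peaks. For Bmal1KO it changed sign, at -0.35 in windows with 1 to 29 peaks, -1.36 with the shifted grid and -1.60 among 6-fold peaks. The causes were not tested. The deciles of fold, score and width, and leaving out the chromosome 5 window, were chosen after seeing the data. Of 176 alternative medians and counts, 35 moved. Some of the 176 could not move, since another overlap rule leaves medians and counts as they are. Counts have no interval and were judged by the size of their change. No paired analysis was possible because each genotype has 1 library and no result comes from a test, and for the same reason no replicate could be left out. Peaks under a list's threshold cannot be seen in these files, so weak peaks are limited by depth and threshold.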

Other observations

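The longest wild-type peak in the peak-poor windows, chosen after its values were seen, covered 22624 bp of chromosome 1 (149811019-149833643) and had 607 tags in wild type. Bmal1KO had 7 shorter peaks within it, covering 13548 bp with 251 tags, and Mfp2KO had 6, covering 8826 bp with 155 tags. The next longest, on chromosome 5 (86211927-86228426), covered 16499 bp with 498 tags in wild type. There Bmal1KO had 4 peaks over 6952 bp with 257 tags, and Mfp2KO 3 peaks over 6050 bp with 585 tags. In 3 windows without a wild-type peak there were 3 Bmal1KO peaks and 1 Mfp2KO peak.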
